A study of Mus musculus with 4 samples.

Results

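The genes described here are 10 regulators of the step from G1 into S phase. They are 5 inhibitors of cyclin-dependent kinases (Cdkn1a, Cdkn1b, Cdkn2a, Cdkn2b and Cdkn2c), the tumour suppressor Trp53 and its ubiquitin ligase Mdm2, and the D cyclins Ccnd1, Ccnd2 and Ccnd3. They were taken by symbol from the 32285 genes of the count matrices, and all 10 were present in every library. Single-cell RNA sequencing had been done on cultured mouse cells of 4 kinds, with 1 library each. De-differentiated fat (DFAT) cells were grown by ceiling culture, in which floating adipocytes attach to the upper wall of a flask and lose their lipid. Adipose stem and progenitor cells (ASPCs) were the cultured cells of the stromal vascular fraction. Each came from inguinal fat (iWAT), a subcutaneous depot, and from epididymal fat (eWAT), a visceral depot, of chow-fed C57BL/6J male mice with no transgene named for these cultures. The cultures were sorted for viable cells with 7-AAD before loading, and neither the labels nor the methods say how many animals or cultures went into a library.

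A cell enters S phase when cyclin D with CDK4 or CDK6 and cyclin E with CDK2 have phosphorylated the retinoblastoma proteins, which frees E2F factors. The INK4 proteins (here Cdkn2a, Cdkn2b, Cdkn2c) bind CDK4 and CDK6 and keep cyclin D off them, while the Cip/Kip proteins (here Cdkn1a, Cdkn1b) act mainly on the CDK2 complexes. p53, which Mdm2 marks for degradation, induces both Cdkn1a and Mdm2, and Cdkn2a and Cdkn1a are widely used as markers of senescence in adipose progenitors. Much of p53 and p27 control acts on the protein, which these data do not measure.

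Cells were barcodes with 5000 to 75000 UMIs, 200 to 7500 genes and under 10% mitochondrial UMIs, which gave 7629 iWAT_DFAT, 6464 eWAT_DFAT, 7424 iWAT_ASPC and 6745 eWAT_ASPC cells. Median depth ran from 22111 to 27617 UMIs per cell, and pairs of libraries shared 13 to 20 cell barcodes. At full depth, at least 2 of 6 ASPC markers had a UMI in 94.3% to 99.3% of the cells of each library. Pdgfra was detected in 73.6% to 93.7% of cells at full depth and in 30.7% to 63.9% after thinning to 5000 UMIs. Lum, another of the 6, was detected in 6.40% to 25.2% at full depth. Free RNA held Col1a1 at 1911, 742 and 3406 CPM in iWAT_DFAT, eWAT_DFAT and iWAT_ASPC, where cells had 1546, 693 and 2621 CPM. In eWAT_ASPC Col1a1 was at 2224 CPM in free RNA and 2226 CPM in cells. The part of free RNA in these shares was not tested. Of 4 adipocyte markers, Lep had 0 UMIs in every library. An upper limit set at 3 counts comes to 0.0163 CPM in the iWAT_DFAT library, the highest of the 4 limits. The other 3 markers were found in the DFAT libraries above all. Plin1, a lipid droplet protein gene, was at 13.9 CPM in iWAT_DFAT and 27.3 CPM in eWAT_DFAT cells (a UMI in 4.69% and 6.90% of cells thinned to 5000 UMIs) and at 0.29 and 0.76 CPM in the iWAT and eWAT ASPC libraries. Adipoq and Cidec were at 11.3 and 6.77 CPM in eWAT_DFAT cells, at 1.23 and 0.60 CPM in iWAT_DFAT cells and under 1 CPM in the ASPC libraries. Plin1 was at 17.0 and 30.1 CPM in the free RNA of iWAT_DFAT and eWAT_DFAT, so its level in cells was not above that. Nor was that of Adipoq in iWAT_DFAT (2.07 CPM in free RNA) or of Cidec in eWAT_DFAT (6.88). Adipoq in eWAT_DFAT (9.72) and Cidec in iWAT_DFAT (0.28) were higher in cells than in free RNA. The part of cells with adipocyte markers in the differences below was examined only by leaving out cells with markers of another type. Cells with 2 or more markers of another type numbered 95, 446, 253 and 766 in the same order, among them 538 mesothelial-marked cells in the eWAT_ASPC library and 146 Schwann-marked cells in the iWAT_ASPC library. A level is the UMIs of a gene per 1000000 UMIs summed over the cells of a library (CPM), and intervals are exact and hold counting error at 95% only. Each condition had a single library, so no difference has a replicate check or a test: cell source, depot, culture and library cannot be told apart, and whether another culture would repeat a difference is unknown. Fewer cells with a transcript and less transcript per cell also give the same summed level. Shares of cells with a UMI of any of the 10 genes are therefore given after thinning every cell to 5000 UMIs.

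**Figure D1:**
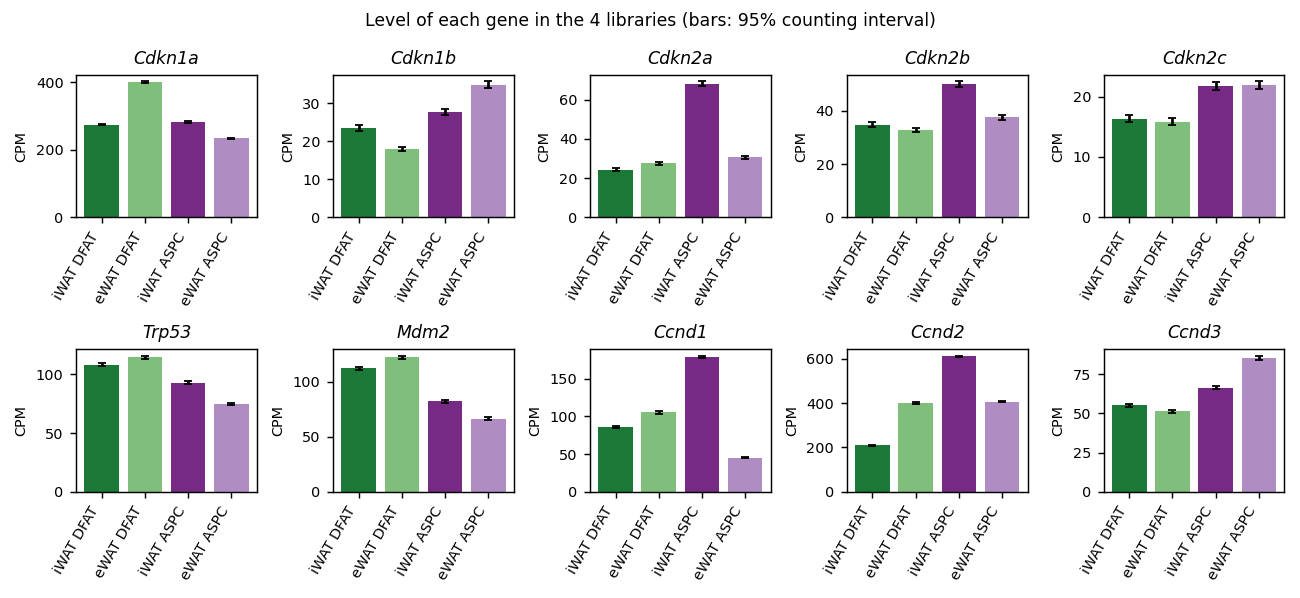
Level (CPM, axis from 0) of each of the 10 genes in the 4 libraries, summed over cells, with 95% counting intervals as bars. Ccnd2 runs from 211 CPM in iWAT_DFAT cells to 611 CPM in iWAT_ASPC cells, and Cdkn2a stands at 68.2 CPM in iWAT_ASPC cells against 24.3 to 30.6 CPM in the other libraries.

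Relative to ASPCs of the same depot, DFAT cells carried more Mdm2 and Trp53 mRNA in both depots, and less Cdkn1b, Cdkn2c and Ccnd3. Cdkn2a and Cdkn2b were also lower in DFAT cells, except among eWAT cells with a Top2a UMI. In iWAT the DFAT library was lower at any size in 8 of the 10 genes, as it was in 42.4% of all genes compared, most of all in Ccnd2, Cdkn2a and Ccnd1. In eWAT it was higher in 4, Ccnd1, Mdm2, Cdkn1a and Trp53, as in 56.1% of all genes. Among genes at 5 CPM or more in the higher library, 3 of the 10 were lower by 1.5-fold or more in iWAT, where 10.1% of the 10426 genes compared were, and 0 of the 10 were higher, against 18.4%. The eWAT comparison had 4 of 10 higher against 15.0% of 10298 genes and 2 of 10 lower (Cdkn1b and Ccnd3) against 13.1%. The median log2 ratio of the 10 genes was -0.34 in iWAT and -0.08 in eWAT, beside medians of 0.09 and 0.07 over all genes compared.

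**Figure D2:**
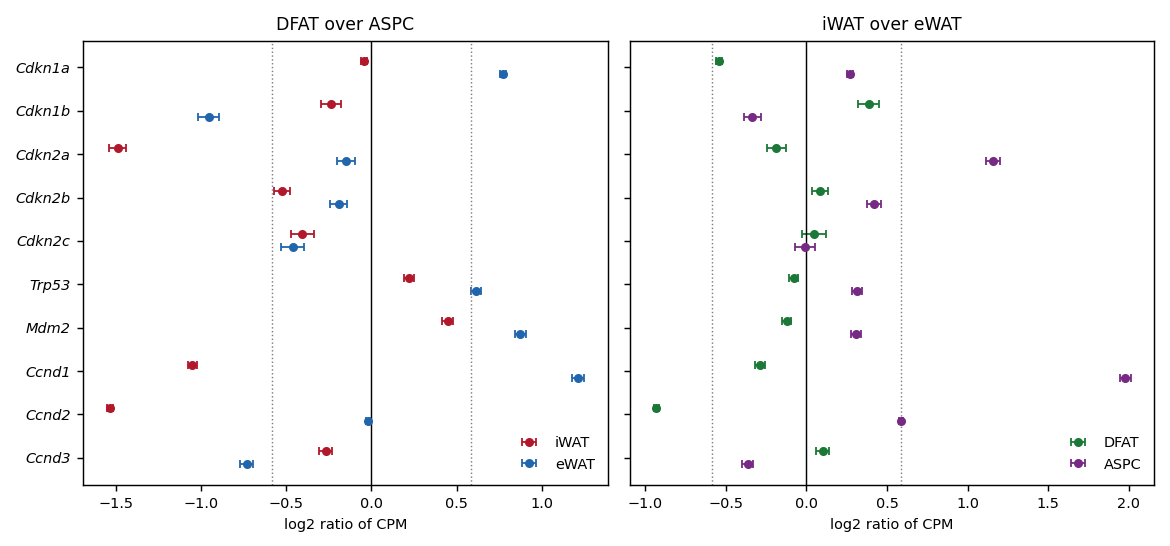
Log2 ratio of CPM between libraries for each gene, DFAT over ASPC in the 2 depots (left) and iWAT over eWAT in the 2 kinds of cell (right), with 95% counting intervals as bars and 1.5-fold as dotted lines. Ccnd1 lies at -1.05 in iWAT and at 1.21 in eWAT on the left, and at 1.98 in ASPCs on the right.

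Cdkn1a encodes p21, the inhibitor through which p53 most directly halts the cycle. Its level was 274 CPM (95% interval 272 to 277) in iWAT_DFAT, 399 (396 to 402) in eWAT_DFAT, 282 (280 to 285) in iWAT_ASPC and 234 (232 to 236) in eWAT_ASPC cells. The eWAT_DFAT library stood above the other 3, and the 2 iWAT libraries lay close together. After thinning, 55.9%, 66.9%, 56.3% and 48.3% of the cells held a Cdkn1a UMI. DFAT exceeded ASPC by 1.71-fold in eWAT (log2 ratio 0.77, interval 0.75 to 0.79), while in iWAT the log2 ratio was -0.04 (-0.06 to -0.02) and took the other sign under some alternatives, from -0.14 to 0.04. In the thinned cells the variance of Cdkn1a UMIs over their mean was 2.42, 2.31, 2.41 and 2.88 in these libraries, where counting alone gives about 1 and Trp53 had 1.03 to 1.05.

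Cdkn1a has 2 start windows in the RefSeq promoter table (GRCm38.p6, which is mm10), each running from 250 bases before a start to 50 after it. The first is printed because it holds the only match to a p53 response element among the 12 windows found for 8 of the 10 genes. The search was for both decamers with no spacer, their 4 core C and G fixed and at most 1 other base off, and it matched 22 of 32851 windows in the table (0.067%). The element starts at position 200 of the window and is in capitals.
Cdkn1a, chr17:29090729-29091028, plus strand: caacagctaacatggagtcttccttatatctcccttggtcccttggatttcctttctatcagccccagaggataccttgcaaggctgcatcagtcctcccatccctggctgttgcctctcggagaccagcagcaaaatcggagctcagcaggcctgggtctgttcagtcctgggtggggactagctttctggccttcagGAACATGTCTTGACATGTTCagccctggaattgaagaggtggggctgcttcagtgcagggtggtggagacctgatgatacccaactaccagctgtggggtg
The match describes the sequence only. Of the shorter motifs, searched on both strands, CATG (which the element also contains) was in 3 of the 12 windows and in 61.1% of all windows. CCAAT was in 6 of the 12 and in 37.4% of all, and TTTGAA was in the Cdkn2b window and in 17.9% of all. Ccnd1 and Ccnd2 have no entry in the table.

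Cdkn1b encodes p27, the inhibitor that is typically high in resting cells and cleared before S phase. It was at 23.5 CPM (22.8 to 24.2) in iWAT_DFAT, 18.0 (17.4 to 18.6) in eWAT_DFAT, 27.7 (26.9 to 28.4) in iWAT_ASPC and 34.9 (34.1 to 35.7) in eWAT_ASPC cells. The order across libraries was the reverse of that of Cdkn1a at its ends, with eWAT_DFAT lowest and eWAT_ASPC highest. The eWAT_DFAT level was 0.515 times that of eWAT_ASPC (log2 ratio -0.96, interval -1.02 to -0.90), and in iWAT the log2 ratio was -0.24 (-0.29 to -0.18). Free RNA of eWAT_ASPC held 34.1 CPM of Cdkn1b, close to the level in its cells, and that of eWAT_DFAT 13.9 CPM. The eWAT ratio ran from -1.08 to -0.83 under the alternatives, among them the subtraction of free RNA at an assumed 10% of the UMIs. As a share of the summed UMIs of Cdkn1a and Cdkn1b, which leave out Cdkn1c, Cdkn1b ran from 4.31% in eWAT_DFAT to 13.0% in eWAT_ASPC cells.

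Cdkn2a gives rise to 2 unrelated proteins, p16INK4a, which inhibits CDK4 and CDK6, and p19ARF, which holds back Mdm2. Both transcripts end in the same exons, so a 3′ count cannot tell them apart. The summed level was 24.3 CPM (23.6 to 25.0) in iWAT_DFAT, 27.6 (26.9 to 28.4) in eWAT_DFAT, 68.2 (67.0 to 69.3) in iWAT_ASPC and 30.6 (29.9 to 31.4) in eWAT_ASPC cells. The iWAT_ASPC library stood alone, 2.81-fold above iWAT_DFAT (log2 ratio of DFAT over ASPC -1.49, interval -1.54 to -1.44) and 2.23-fold above eWAT_ASPC (1.15, 1.11 to 1.20). A Cdkn2a UMI was found in 23.3% of thinned iWAT_ASPC cells and in 10.7% to 12.6% of the cells of the other libraries. In free RNA Cdkn2a was at 56.2 CPM in iWAT_ASPC and at 13.8 to 23.0 CPM in the other libraries, and its part in these shares was not tested. The iWAT_ASPC library was also the one whose file header names another Cell Ranger version, 4 in place of 7.1.0, while the methods state 1 version with introns counted for all of the data. Which applies to that library is unsettled. This bears on every ratio with that library, which is also the highest for Ccnd1, Ccnd2 and Cdkn2b. Over all genes, the median log2 ratio of iWAT DFAT over ASPC went from -0.05 in the 2607 genes with the least intron sequence to 0.26 in the 2607 with the most. That of iWAT over eWAT went from -0.01 to 0.11 between such groups in ASPCs, and from -0.03 to 0.23 in DFAT cells, a comparison without that library. The part of counting in the differences was not tested.

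The windows of both Cdkn2a starts are printed because 1 count stands for them. The upstream start belongs to the p19ARF transcript and the downstream one to p16INK4a. Of the 12 windows, the upstream one alone held the E2F motif TTTCCCGC (in capitals, position 152), which was in 1.07% of all windows. A second E2F motif, TTTGGCGC, was in 0 of the 12 and in 0.514% of all.
Cdkn2a upstream start, chr4:89294570-89294869, minus strand: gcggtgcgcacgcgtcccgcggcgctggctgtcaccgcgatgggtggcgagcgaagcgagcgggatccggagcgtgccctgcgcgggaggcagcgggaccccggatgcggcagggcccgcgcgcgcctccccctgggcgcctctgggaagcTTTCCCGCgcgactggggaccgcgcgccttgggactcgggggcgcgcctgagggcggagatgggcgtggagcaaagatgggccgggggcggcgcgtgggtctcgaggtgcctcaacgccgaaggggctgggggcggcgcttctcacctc
Cdkn2a downstream start, chr4:89282143-89282442, minus strand: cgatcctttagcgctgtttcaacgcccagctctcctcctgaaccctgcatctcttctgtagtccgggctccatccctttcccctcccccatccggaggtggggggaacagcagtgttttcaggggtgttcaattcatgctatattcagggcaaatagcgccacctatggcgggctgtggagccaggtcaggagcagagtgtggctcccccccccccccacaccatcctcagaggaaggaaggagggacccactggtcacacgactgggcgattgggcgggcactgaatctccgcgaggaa
Neither window has a value of its own in these data, since the counts do not separate the starts.

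Cdkn2b, which encodes p15INK4b and is induced by TGF-β in many cell types, lies 11645 bases from Cdkn2a on chromosome 4. Its levels were 34.8 CPM (34.0 to 35.7), 32.9 (32.0 to 33.7), 50.1 (49.1 to 51.1) and 37.5 (36.7 to 38.4) in iWAT_DFAT, eWAT_DFAT, iWAT_ASPC and eWAT_ASPC cells. It was thus highest in the same library as its neighbour, by a smaller step, with a log2 ratio of DFAT over ASPC of -0.53 (-0.57 to -0.48) in iWAT and -0.19 (-0.24 to -0.14) in eWAT. The iWAT ratio passed 1.5-fold after centring on the median of all genes (-0.61) and within cells without a Top2a UMI (-0.69). The sign in eWAT was the other in cells with a Top2a UMI (0.07). Both genes also met in the same cells: Cdkn2b had a UMI in 27.8% of the thinned iWAT_ASPC cells with Cdkn2a and in 16.6% of those without. The corresponding shares were 26.7% and 12.8% in eWAT_ASPC, 21.4% and 13.5% in eWAT_DFAT, and 19.7% and 15.1% in iWAT_DFAT cells.

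Cdkn2c encodes p18INK4c, an INK4 protein whose mRNA is known to climb with E2F activity in cycling cells. Its level was 16.4 CPM (15.8 to 17.0) in iWAT_DFAT, 15.8 (15.3 to 16.4) in eWAT_DFAT, 21.7 (21.0 to 22.3) in iWAT_ASPC and 21.8 (21.2 to 22.5) in eWAT_ASPC cells. The ASPC libraries were higher in both depots. Over all cells the log2 ratio of iWAT over eWAT was 0.05 (-0.03 to 0.12) in DFAT cells and -0.01 (-0.07 to 0.05) in ASPCs, both with intervals that include 0. Within cells that lacked a UMI of the division gene Top2a it was -0.23 and -0.31, and within cells that had one it was 0.19 and -0.03. In eWAT the log2 ratio of DFAT over ASPC was -0.46, and it passed 1.5-fold after thinning (-0.59) and within cells without Top2a (-0.70). In iWAT it was -0.41, and -0.62 within cells without Top2a. Within the summed UMIs of Cdkn2a, Cdkn2b and Cdkn2c, which leave out Cdkn2d, the Cdkn2a share was 48.7% in the iWAT_ASPC library and 32.2% to 36.2% in the other 3.

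Trp53 mRNA was at 108 CPM (107 to 110) in iWAT_DFAT, 114 (113 to 116) in eWAT_DFAT, 92.8 (91.5 to 94.2) in iWAT_ASPC and 74.8 (73.6 to 76.0) in eWAT_ASPC cells. Mdm2 followed the same order, with 112 CPM (111 to 114), 122 (120 to 124), 82.3 (81.1 to 83.6) and 66.5 (65.4 to 67.7). Both DFAT libraries lay above both ASPC libraries in each gene. The log2 ratio of DFAT over ASPC for Mdm2 was 0.45 (0.42 to 0.48) in iWAT and 0.88 (0.84 to 0.91) in eWAT, and for Trp53 it was 0.22 (0.19 to 0.25) and 0.61 (0.58 to 0.64). Among all genes compared, Mdm2 lay at percentiles 75.6 in iWAT and 92.1 in eWAT, and Trp53 at 61.0 and 86.1. The iWAT ratio of Trp53 was 0.13 when centred on the median of all genes. The eWAT ratio of Trp53 was no longer past 1.5-fold when centred on the median of all genes (0.54), thinned to 5000 UMIs per cell (0.57) or taken within cells with a Top2a UMI (0.55). The Mdm2 level in droplets of 1 to 100 UMIs, which hold free RNA, was 131, 129, 89.9 and 62.6 CPM for these libraries in turn, so its level in cells was not above that of free RNA in the first 3 libraries.

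Beyond the 10 genes, 30 p53 targets and regulators were followed as a list. Of the 24 at 5 CPM or more in the iWAT comparison, 2 were higher and 3 lower in DFAT by 1.5-fold or more, where 18.4% and 10.1% of all genes were. Of 25 in eWAT, 4 were higher and 2 lower, where 15.0% and 13.1% of all genes were. The median log2 ratios were -0.16 and 0.12, beside 0.09 and 0.07 over all genes. In iWAT 11 of the 24 lay above 0, as did 57.6% of all genes, and in eWAT 16 of the 25, beside 56.1%. Plk2, a p53-induced kinase, was higher in DFAT in both depots (log2 ratios 0.52 and 0.66), as were the phosphatase gene Ppm1d (0.56 and 0.51) and the secreted stress factor Gdf15 (0.41 and 0.54). Sesn2, a stress-induced inhibitor of mTORC1 signalling, was lower (-0.53 and -0.59), as were Phlda3, an inhibitor of AKT (-0.89 and -0.33), and Ei24 (-0.39 and -0.23).

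Ccnd1, the D cyclin most tied to growth factor signalling, was at 86.2 CPM (84.9 to 87.6) in iWAT_DFAT, 105 (104 to 107) in eWAT_DFAT, 179 (177 to 181) in iWAT_ASPC and 45.5 (44.5 to 46.4) in eWAT_ASPC cells. The 2 ASPC libraries were the extremes, 3.93-fold apart, with both DFAT libraries between them. DFAT was therefore below ASPC in iWAT (log2 ratio -1.05, interval -1.08 to -1.03) and above it in eWAT (1.21, 1.18 to 1.25), and these signs held in all 11 alternatives. A Ccnd1 UMI was in 27.0%, 33.3%, 50.0% and 15.1% of the thinned cells. The variance of its UMIs over their mean was 1.71, 1.67, 1.95 and 2.51, highest in the eWAT_ASPC library.

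Cells with markers of other types carried part of that Ccnd1. In the eWAT_ASPC library, 205 cells with 2 or more endothelial markers had 296 CPM (281 to 312) and 538 mesothelial-marked cells had 73.4 CPM (69.0 to 78.0). Without any cell marked for another type, the eWAT_ASPC level was 35.7 CPM and the eWAT log2 ratio of DFAT over ASPC was 1.57. The 146 Schwann-marked cells of the iWAT_ASPC library had 654 CPM (621 to 688), and its 76 endothelial-marked cells had 378 CPM (349 to 409). In the eWAT_DFAT library, 152 endothelial-marked cells had 251 CPM (232 to 271) and 199 adipocyte-marked cells had 33.3 CPM (28.5 to 38.8). Its 59 mesothelial-marked cells had 57.4 CPM (45.9 to 71.0). Leaving out all such cells moved the level from 179 to 171 CPM in the iWAT_ASPC and from 45.5 to 35.7 CPM in the eWAT_ASPC library, and the log2 ratio of iWAT over eWAT in ASPCs from 1.98 to 2.26.

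Ccnd2, which binds the same kinases as Ccnd1, was at 211 CPM (209 to 213) in iWAT_DFAT, 401 (399 to 404) in eWAT_DFAT, 611 (608 to 615) in iWAT_ASPC and 407 (404 to 409) in eWAT_ASPC cells. The 2 eWAT libraries were nearly level (log2 ratio of DFAT over ASPC -0.02, with both signs under the alternatives, -0.09 to 0.02), and the 2 iWAT libraries lay on either side of them. In iWAT the DFAT level was 0.345 times that of ASPCs, a log2 ratio of -1.54 (-1.55 to -1.52). Ccnd3 was at 55.1 CPM (54.0 to 56.1), 51.3 (50.3 to 52.4), 66.3 (65.2 to 67.4) and 85.4 (84.1 to 86.7), the libraries in that order, beside 51.8, 44.0, 74.4 and 75.4 CPM in free RNA, so its level in iWAT_ASPC cells was not above that of free RNA. Its highest library, eWAT_ASPC, was the lowest for Ccnd1.

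As shares of all D cyclin UMIs, Ccnd1 made up 24.5%, 18.9%, 20.9% and 8.46% in iWAT_DFAT, eWAT_DFAT, iWAT_ASPC and eWAT_ASPC cells, Ccnd2 59.9%, 71.9%, 71.4% and 75.6%, and Ccnd3 15.6%, 9.20%, 7.74% and 15.9%. The summed D cyclin level came to 352, 558, 857 and 538 CPM. After thinning, 26.2% of iWAT_DFAT cells and 4.75% of iWAT_ASPC cells had no UMI of any D cyclin, with 12.6% and 13.0% in the eWAT libraries, and 4.21% to 12.0% had UMIs of all 3. Their partner Cdk4 was at 201, 242, 228 and 175 CPM, and Cdk6 at 48.4, 31.4, 33.0 and 32.3 CPM, with iWAT_DFAT the highest library for Cdk6.

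**Figure D3:**
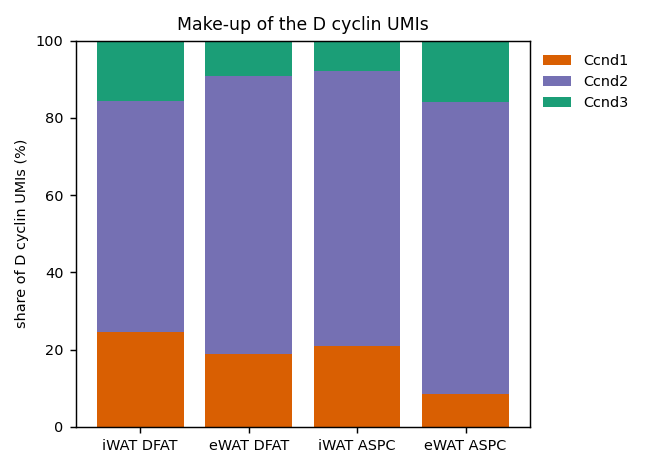
Share of the D cyclin UMIs (%) that came from Ccnd1, Ccnd2 and Ccnd3 in each library, stacked to 100. The Ccnd1 part is smallest in eWAT_ASPC cells (8.46%) and largest in iWAT_DFAT cells (24.5%).

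Between depots, 0 of the 10 genes were higher and 1 (Ccnd2, log2 ratio -0.93, interval -0.95 to -0.91) was lower by 1.5-fold or more in iWAT_DFAT against eWAT_DFAT cells, where 17.6% and 9.10% of 10384 genes were. Cdkn1a was close to that limit, at -0.54 (-0.56 to -0.53), and passed it after centring on the median of all genes (-0.63). In ASPCs 3 of 10 (Ccnd1, Cdkn2a and Ccnd2) were higher in iWAT by 1.5-fold or more, where 7.25% of 10135 genes were, and 0 were lower, against 7.44%. Ccnd2 was at that limit in ASPCs (0.59, interval 0.58 to 0.60) and fell short of it in 4 alternatives, the lowest 0.53. These comparisons share libraries with those of DFAT against ASPC and are not independent of them.

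Of 30 other genes of the cycle machinery (cyclins, CDKs, pocket proteins, E2F factors and further inhibitors), 29 were at 5 CPM or more in each comparison. In DFAT against ASPC, 0 were higher and 2 lower by 1.5-fold or more in iWAT, where 18.4% and 10.1% of all genes were, and 7 were higher and 2 lower in eWAT, where 15.0% and 13.1% were. Their median log2 ratios were -0.09 and 0.27, beside 0.09 and 0.07 over all genes. Cdc25a, a phosphatase that activates CDK2, was higher in DFAT in both depots (log2 ratios 0.40 and 1.03), as were E2f5 (0.34 and 0.71) and E2f3 (0.28 and 0.52). The repressor gene E2f6 was lower (-0.99 and -0.79), as were the phosphatase gene Cdkn3 (-0.47 and -0.83) and Cdkn2d, the fourth INK4 gene (-0.39 and -0.42). The widest difference in the list, named after its values were seen, was that of Cdkn1c, the third Cip/Kip gene (p57), with 8.0 CPM in iWAT_DFAT, 4.2 in eWAT_DFAT, 79.9 in iWAT_ASPC and 5.4 in eWAT_ASPC cells.

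Cells were then split by whether they held a UMI of Top2a, the topoisomerase made in S, G2 and M phase. This put 3392 of 7629 (44.5%), 3181 of 6464 (49.2%), 3561 of 7424 (48.0%) and 2636 of 6745 (39.1%) cells in the Top2a class, and after thinning 26.0%, 27.3%, 27.8% and 19.9% held a UMI. The classes differ in depth, with a median of 27039 UMIs per cell against 19303 in iWAT_DFAT and 31930 against 25298 in eWAT_ASPC, so each ratio was also taken in cells of 20000 to 30000 UMIs. Of the cycle list, 17 of 29 genes were higher by 1.5-fold or more with Top2a in each library, where 5.90% to 7.33% of all genes were, led by Cdk1 (log2 ratios 2.86 to 3.35), E2f8 (2.75 to 3.64) and Ccna2 (2.39 to 3.06). Cdkn1c was lower in all 4 libraries (-1.58 to -0.25). Cdk7 had ratios from -0.17 to -0.02, with an interval that included 0 in iWAT_DFAT.

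**Figure D4:**
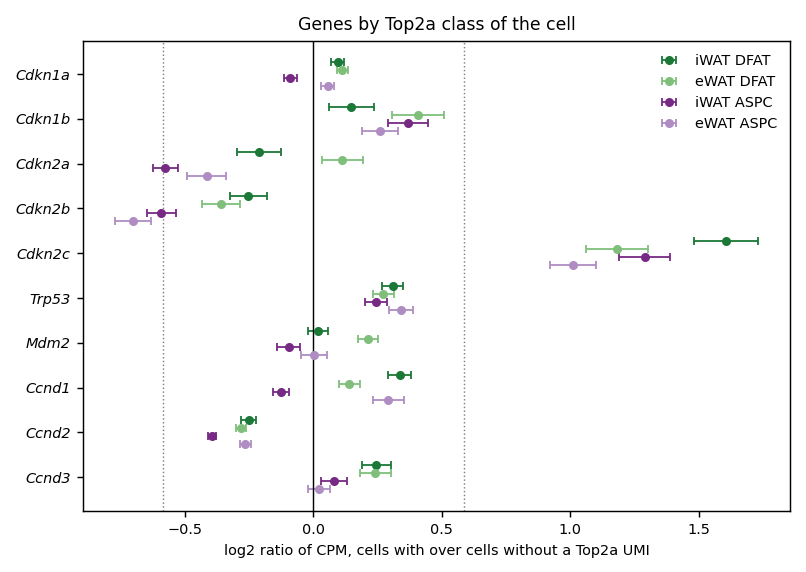
Log2 ratio of CPM in cells with over cells without a Top2a UMI, for each gene and library, with 95% counting intervals as bars and 1.5-fold as dotted lines. Cdkn2c lies between 1.01 and 1.61 in the 4 libraries, and Cdkn2b and Ccnd2 lie below 0 in all 4.

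Among the 10 genes, Cdkn2c was the one on the side of the Top2a cells by 1.5-fold or more, and it was so in every library. It had 24.0 CPM (23.0 to 25.0) with and 7.88 (7.30 to 8.49) without Top2a in iWAT_DFAT, 21.0 (20.1 to 21.9) and 9.27 (8.62 to 9.95) in eWAT_DFAT, 29.5 (28.5 to 30.6) and 12.1 (11.4 to 12.8) in iWAT_ASPC, and 30.2 (29.1 to 31.4) and 15.0 (14.3 to 15.8) in eWAT_ASPC cells. The lowest value with Top2a was thus above the highest without it. The log2 ratios were 1.61, 1.18, 1.29 and 1.01, and 1.78, 1.08, 1.21 and 0.94 in cells of like depth. Of all genes compared, 7.33%, 5.90%, 6.83% and 6.78% were higher by 1.5-fold or more, library by library, and Cdkn2c lay at percentiles 97.4, 97.0, 96.8 and 96.0 of their ratios. Free RNA held 19.7, 16.1, 24.9 and 16.9 CPM of Cdkn2c in these libraries, above its level in the cells without Top2a and, outside eWAT_ASPC, not below its level over all cells, and the part of free RNA in the class ratios was not tested. Over all cells, subtracting free RNA at an assumed 10% of the UMIs left Cdkn2c at 15.9, 15.7, 21.3 and 22.3 CPM. In eWAT_DFAT, adipocyte-marked cells had 45.8 CPM of Cdkn2c, mesothelial-marked cells 46.6 and endothelial-marked cells 9.17. Schwann-marked cells of iWAT_ASPC had 44.6 CPM and endothelial-marked ones 16.3, and mesothelial-marked and endothelial-marked cells of eWAT_ASPC had 34.2 and 23.3. The class ratios were not taken without cells of other types.

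Cdkn2b ran the other way, with log2 ratios of -0.25 (-0.32 to -0.18), -0.36 (-0.43 to -0.29), -0.59 (-0.65 to -0.53) and -0.70 (-0.77 to -0.63). It was the member lower by 1.5-fold or more in each ASPC library (61.4 CPM without and 40.8 with Top2a in iWAT_ASPC, 45.3 and 27.9 in eWAT_ASPC), where 0.989% and 0.994% of all genes were. The DFAT libraries had 0 members lower by as much, against 3.56% and 2.59%. The iWAT_ASPC value rested on that limit, since it was -0.54 with Top2a looked for after thinning and also without the upper limits on UMIs and genes. Cdkn2b was at 40.5 CPM in the free RNA of iWAT_ASPC and 29.4 in that of eWAT_ASPC, beside 40.8 and 27.9 in their cells with Top2a. The part of free RNA in these ratios was not tested. Cdkn2a had -0.58 and -0.41 in the ASPC libraries and -0.21 and 0.11 in the DFAT libraries of iWAT and eWAT, the last of which was -0.13 in cells of like depth. Ccnd2 was lower with Top2a in every library, by log2 ratios from -0.39 to -0.25, while Cdkn1b (0.15 to 0.41) and Trp53 (0.24 to 0.34) were higher.

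Cdkn1a differed little between the classes. It was at 283, 413, 274 and 239 CPM with and at 265, 382, 292 and 230 CPM without Top2a. The log2 ratios of 0.10, 0.11, -0.09 and 0.06 were small beside those of Cdkn2c, and in cells of like depth they were -0.10, -0.04, -0.23 and -0.18. The sign thus turned with the handling of depth in 3 libraries and was negative both ways in iWAT_ASPC, where it ran from -0.31 to 0.06 over all alternatives. In eWAT_DFAT it also turned (-0.05) once cells with UMIs of other division genes were left out of the class without Top2a. Mdm2 had ratios of 0.02, 0.21, -0.10 and 0.00, and -0.28, 0.02, -0.30 and -0.03 in cells of like depth. Ccnd1 had 0.34, 0.14, -0.12 and 0.29, and 0.04, 0.04, -0.15 and 0.53 in cells of like depth. Its eWAT_ASPC ratio passed 1.5-fold (0.62) once cells with UMIs of other division genes were left out of the class without Top2a. Ccnd3 had 0.25, 0.24, 0.08 and 0.02, and 0.21, 0.28, 0.02 and -0.01 in cells of like depth. The differences between libraries in Ccnd1 and, in iWAT, Cdkn2a were found within each Top2a class: Ccnd1 in DFAT over ASPC was -0.85 and -1.31 in iWAT cells with and without Top2a and 1.12 and 1.27 in eWAT cells, and Cdkn2a in iWAT was -1.31 and -1.67. Of the 40 ratios between libraries, 4 had the other sign within cells with Top2a and 2 within cells without it, among them Cdkn2a in eWAT DFAT over ASPC (-0.15 over all cells and 0.14 with Top2a).

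A finer split used Hist1h1b, a linker histone gene of S phase, and Ccnb1, the cyclin of G2 and M phase, each looked for in thinned cells. Cells with neither were 62.9% to 71.0% of a library, cells with Hist1h1b alone 12.9% to 19.5% and cells with Ccnb1 alone 9.06% to 14.1%. Levels were taken from the full counts of these cells, which were not matched on depth. The part of depth in the ratios below was not tested. Against cells with neither, Cdkn2c was higher with Hist1h1b alone (log2 ratios 0.84 to 1.14) and with Ccnb1 alone (0.92 to 1.45) in all 4 libraries. Cdkn2b was lower with Hist1h1b alone in all 4 (-0.91 to -0.48), and between the 2 marked classes it was higher with Ccnb1 (0.31 to 0.71). With Ccnb1 alone against neither it was higher in iWAT_DFAT (0.18) and lower in eWAT_DFAT (-0.17), iWAT_ASPC (-0.43) and eWAT_ASPC (-0.53). Ccnd2 was lower in both marked classes than in cells with neither, more so with Ccnb1 (-0.64 to -0.45) than with Hist1h1b (-0.41 to -0.21). Ccnd3 was lower with Ccnb1 than with Hist1h1b in every library (-0.43 to -0.15), and Cdkn1b was higher with Ccnb1 than in cells with neither (0.42 to 0.54). Cdkn1a was higher with Hist1h1b alone than with neither in all 4 libraries (0.09 to 0.14). With Ccnb1 against Hist1h1b it was lower in eWAT_DFAT (-0.31) and iWAT_ASPC (-0.27). The intervals of that ratio were -0.043 to 0.047 in iWAT_DFAT and -0.094 to 0.013 in eWAT_ASPC.

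Cells were also grouped by their own Cdkn1a UMIs after thinning, into 0, 1 to 2, 3 to 5 and 6 or more UMIs of 5000. Mdm2 was higher in each successive class of every library. In iWAT_DFAT cells it was at 62.6, 103, 187 and 364 CPM, in eWAT_DFAT at 72.2, 110, 165 and 236, in iWAT_ASPC at 53.8, 79.5, 120 and 188, and in eWAT_ASPC at 48.0, 71.2, 105 and 162 CPM. The intervals of neighbouring classes did not overlap in any library. Summed over the 30 genes of the p53 list, the level was 2266 CPM (2244 to 2289) in iWAT_DFAT cells with 0 and 3798 (3690 to 3909) in those with 6 or more Cdkn1a UMIs, and 2014 (1993 to 2036) and 3434 (3315 to 3557) in eWAT_ASPC cells. Ccnd2, outside that list, was also higher with 6 or more than with 0 UMIs in every library. It went from 184 to 254 CPM in iWAT_DFAT and from 520 to 727 in iWAT_ASPC. Ccnd1 went from 43.2 (40.2 to 46.4) to 89.5 CPM (71.1 to 111) in eWAT_ASPC. In the other libraries the intervals of these end classes overlapped, but a middle class lay above that with 0 UMIs. With 1 to 2 UMIs it was 88.2 (83.4 to 93.1) against 68.0 (64.1 to 72.0) in iWAT_DFAT. In eWAT_DFAT it was 109 (103 to 115) against 95.9 (90.1 to 102). With 3 to 5 UMIs it was 200 (188 to 212) against 171 (165 to 178) in iWAT_ASPC. The remaining middle class overlapped that with 0 in eWAT_DFAT and iWAT_ASPC. No share over all genes was taken for these classes, so a rise particular to p53 targets was not tested.

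Trp53 mRNA itself differed little between the classes with 0 and with 3 to 5 Cdkn1a UMIs. It was at 103 CPM (98.4 to 108) in the iWAT_DFAT cells with 0 Cdkn1a UMIs and at 107 (98.8 to 116) in those with 3 to 5, and at 76.5 (72.4 to 80.7) and 77.2 (68.5 to 86.6) in eWAT_ASPC cells, with overlapping intervals. The iWAT_DFAT cells with 6 or more UMIs were at 129 CPM (110 to 151), an interval above that of the cells with 0 and overlapping that of the cells with 3 to 5. Such cells of eWAT_ASPC were at 88.4 CPM (70.1 to 110), overlapping both. The share of thinned cells with a Top2a UMI was 22.4% (21.0 to 23.8) with 0 and 29.7% (24.0 to 35.8) with 6 or more UMIs in iWAT_DFAT, 23.9% and 33.1% in eWAT_DFAT, 26.0% and 25.2% in iWAT_ASPC, and 18.0% and 21.5% in eWAT_ASPC cells. In iWAT_ASPC the share was highest with 1 to 2 UMIs, at 29.9% (28.2 to 31.6), above the interval with 0 (24.5 to 27.5). The highest share was with 3 to 5 UMIs in iWAT_DFAT (30.1%) and eWAT_ASPC (23.4%). These classes are not matched on the depth of the cell before thinning, and in cells of 20000 to 30000 UMIs Cdkn1a was lower with Top2a in all 4 libraries, as given above. Cdkn2a was higher in the Cdkn1a-rich cells of all 4 libraries. It was at 19.7 CPM (17.7 to 22.0) with 0 and 35.8 (26.0 to 48.0) with 6 or more UMIs in iWAT_DFAT, 23.7 (20.8 to 26.8) and 37.1 (28.7 to 47.2) in eWAT_DFAT, 50.8 (47.3 to 54.3) and 124 (107 to 144) in iWAT_ASPC, and 24.7 (22.4 to 27.1) and 68.5 (52.5 to 87.8) in eWAT_ASPC cells. Counts in these classes come from the same thinned cells that define them, so a cell that takes many Cdkn1a UMIs has slightly fewer left for the other genes.

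**Figure D5:**
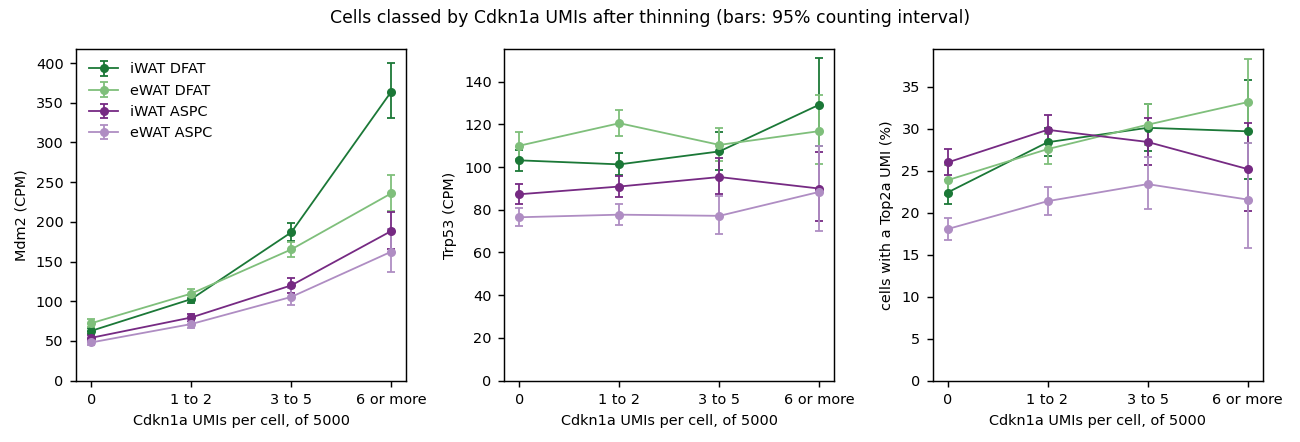
Mdm2 and Trp53 (CPM) and cells with a Top2a UMI (%) in cells classed by Cdkn1a UMIs after thinning to 5000 UMIs, for the 4 libraries, with 95% counting intervals as bars. Mdm2 climbs from 48.0 to 72.2 CPM in the lowest class to 162 to 364 CPM in the highest, while Trp53 stays between 76.5 and 129 CPM.

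Across thinned cells the genes most like each member, by the lowest Pearson r over the 4 libraries among 7081 genes, are given as a description. The cells of a library share its depth and medium, and correlations of sparse counts are low. For Cdkn1a these genes were Ccng1 (r 0.18 to 0.22), Mdm2 (0.17 to 0.27) and Phlda3 (0.16 to 0.24), all of them known p53 targets. For Mdm2 they were Cdkn1a, Exoc4 (0.13 to 0.16) and Trp53inp1 (0.12 to 0.16), and for Cdkn2c the division genes Top2a (0.11 to 0.21), Mki67 (0.11 to 0.18) and Prc1 (0.11 to 0.19). Ccnd1 went with Tm4sf1, Hmga2 and Vim (0.13 to 0.23), and Ccnd2 with the contractile genes Cald1, Tagln and Acta2 (0.13 to 0.21).

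The other members had weaker partners. Cdkn2a was nearest to Cdkn2b (0.054 to 0.18), Cdkn1a (0.053 to 0.11) and Btg2 (0.052 to 0.072), and Cdkn2b to Cdkn2a, Gas1 and Ifitm3 (0.041 to 0.075 for the last pair). The values were at most 0.12 for Cdkn1b (Cenpf, Top2a and Bicc1), 0.096 for Trp53 (Npm1, Ptma and H2afz) and 0.070 for Ccnd3 (Gapdh, Tuba1b and Lgals1). Trp53 with Cdkn1a had r from 0.0054 to 0.016, and Trp53 with Mdm2 from -0.0023 to 0.025.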

How the data were processed

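Droplet-based 3′ libraries were deposited as raw UMI counts per gene and barcode, which the authors made with Cell Ranger on mm10, with introns counted per the methods. The processing notes and methods name version 7.0.0, and the file headers name 7.1.0 for 3 libraries and 4 for iWAT_ASPC. Cells were kept at 5000 to 75000 UMIs, 200 to 7500 genes and under 10% mitochondrial UMIs, and counts were summed per library and scaled to 1000000 UMIs. Genes at 5 CPM or more on the higher side were compared. A gene with 0 UMIs has an upper limit of 3 counts. Intervals are exact Poisson, Clopper-Pearson (shares) or conditional binomial (ratios), at 95%. UMIs limit amplification error, but intervals hold counting error only. Doublets were not removed in the values reported. Free RNA came from droplets of 1 to 100 UMIs. The ratio and interval code was tested on simulated data. Scrublet scores came from scanpy 1.11.5 and intervals from scipy 1.17.1, under Python 3.11.15 with pandas 2.3.3, numpy 2.4.6 and matplotlib 3.10.9.

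The 10 genes, both lists of 30 and the markers were chosen with earlier results of these data known. Genes named from the lists were the 3 per direction with the largest smaller ratio, over both depots or over all 4 libraries. The full p53 element, the finer cycle split, the Cdkn1a classes, the D cyclin counts per cell and the cells of other types were added after seeing the data.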

Additional observations from a re-analysis of the deposited data

Results flagged for a closer look

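With 1 library per condition none of these differences was tested. They stand here because a contrast pointed one way in one group and the other way in the second, with both counting intervals off 0. Ccnd1 had a log2 ratio of DFAT over ASPC of -1.05 in iWAT and 1.21 in eWAT, a difference of -2.27, and the same 4 libraries give -0.29 in DFAT cells and 1.98 in ASPCs for iWAT over eWAT. Cdkn1a had -0.04 and 0.77 for DFAT over ASPC (difference -0.81), and -0.54 and 0.27 between depots. Its iWAT value for DFAT over ASPC ran from -0.14 to 0.04 under the alternatives, so its sign was not stable.

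For iWAT over eWAT the sign also turned between DFAT cells and ASPCs in 6 more genes. Ccnd2 had -0.93 and 0.59 (difference -1.52). Cdkn2a had -0.19 and 1.15 (difference -1.34). Cdkn1b had 0.38 and -0.34 (difference 0.72). Ccnd3 had 0.10 and -0.37 (difference 0.47). Mdm2 had -0.12 and 0.31 (difference -0.43). Trp53 had -0.08 and 0.31 (difference -0.39). Under the alternatives the DFAT value of these 6 genes kept its sign but came as near 0 as -0.0078 for Mdm2, -0.015 for Cdkn2a and 0.010 for Ccnd3. For Ccnd2, Cdkn1b and Trp53 the nearest values were -0.91, 0.29 and -0.054. No intervals were taken in those settings. The difference between the 2 contrasts is the same number from the same 4 libraries, so a gene named for both counts once. Of all genes compared in both contrasts, 25.5% met the same condition for DFAT over ASPC, where 2 of the 10 did, and 32.7% for iWAT over eWAT, where 8 of the 10 did. These genes were not matched to the 10 on level, and level sets how often a counting interval lies off 0.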

How the results depend on the processing

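No member past 1.5-fold changed sign under any alternative tried. Counting intervals do not cover the depth gap between Top2a classes: 7 of 40 class ratios changed sign in cells of 20000 to 30000 UMIs. No paired analysis was possible because no condition had a second library, and no replicate could be left out. In counts of members past 1.5-fold, the 3 lower in iWAT DFAT over ASPC became 5 within cells without a Top2a UMI (11.0% of all genes) and 4 after centring (12.0%). The 1 lower in DFAT iWAT over eWAT became 2 after centring (11.6% of all genes). A 2-fold limit left 1 higher and 0 lower in eWAT DFAT over ASPC (6.44% and 6.67% of all genes), 0 lower between the DFAT libraries (3.95%), and 0 lower with Top2a in each ASPC library (0.200% and 0.181%). For iWAT_ASPC with over without Top2a, the 1 lower member became 3 with Mki67 in place of Top2a (1.89% of all genes). It became 2 with 2 or more Top2a UMIs, without cells holding UMIs of other division genes, in cells of 20000 to 30000 UMIs, without the highest Scrublet scores and after centring, and 0 with Top2a looked for after thinning or no upper limits (0.699% to 2.75% of all genes in these settings). In eWAT_ASPC the 1 higher became 2 without cells holding UMIs of other division genes (8.59% of all genes). The genes involved were Cdkn2b (-0.59 in the values reported) and Cdkn2a (-0.58), both near the limit, and Ccnd2 (-0.39, and -0.61 with Mki67) in iWAT_ASPC, and Ccnd1 in eWAT_ASPC (0.29, and 0.62 in that setting). The causes were not tested.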
